A study of Homo sapiens with 12 samples.

Results

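The transcripts of the ERBB receptor family and of the growth factors that activate it were followed in MDA-MB-231, an established human breast cancer cell line of the triple-negative, mesenchymal type, after transfection of a miR-145-5p mimic with or without silencing of Ago2. The group holds 10 genes, the 4 receptors EGFR, ERBB2, ERBB3 and ERBB4 and the 6 ligands AREG, EREG, HBEGF, TGFA, BTC and NRG1, of the 18253 genes that could be tested. They are grouped by their signalling family. A probe counted for a gene when its design transcript is a RefSeq transcript of that gene. All 10 genes passed the filter on dim probes, with 113 of their 167 probes kept. The cells had received control oligonucleotides (cntrl), the mimic (mimic145), a Dicer-substrate siRNA against Ago2 (sirnaAGO2) or both (sirnaAGO2+mimic145), and 3 single-color exon arrays were run for each of the 4 groups. Per the methods of the study, silencing lasted 72 h, the siRNA was used at 500 pM and the mimic at 5 nM. All groups derive from 1 cell line, and all cells were transfected.

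ERBB receptors are tyrosine kinases of the cell surface that work as dimers. AREG, EREG, HBEGF, TGFA and BTC are made as membrane-bound precursors, are cut free by ADAM proteases and bind EGFR, with HBEGF, EREG and BTC also binding ERBB4, whereas NRG1 binds ERBB3 and ERBB4. ERBB2 has no known ligand and serves as the preferred partner of the other receptors, and ERBB3 has a weak kinase and signals through its partners. Active receptors feed the RAS-ERK and PI3K-AKT pathways. EGFR has been named among the targets of miR-145-5p in other tumors, so its transcript is a natural point to ask what the mimic does to this family.

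The mature sequence of miR-145-5p, the strand that the mimic supplies, is shown because it is the agent of every comparison. It is taken from RefSeq, lies at chr5:149430661-149430683 on the plus strand (GRCh38.p14) and is written from the 5′ end with the seed, bases 2 to 8, in capitals.
hsa-miR-145-5p: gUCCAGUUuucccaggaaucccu

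The share of spots well above background ran from 60.5% to 77.3% over the arrays. Within a replicate number it was higher with the mimic for replicate 3 with intact Ago2 (73.4% in cntrl, 77.3% in mimic145). In every other such pair of arrays it was lower with the mimic. A slide carried the 2 arrays of 1 replicate number that differ by the mimic, with or without silencing, which made 6 slides. The mimic array always had the second position, so that mimic and position cannot be told apart. Arrays with and without silencing were never on the same slide, so silencing and slide cannot be told apart either. Of the markers of a mesenchymal breast line, all 7 (VIM, CD44, AXL, ZEB1, CAV1, MSN and TGFBI) had at least 91.7% of their probes kept, while the luminal genes PGR and FOXA1 had none and ESR1 had 6 of 14. Also on the luminal list, GATA3, XBP1 and KRT19 had all of their probes kept, EPCAM 9 of 10 and CDH1 7 of 16, so these markers were not absent. The leukocyte genes PTPRC, CD3E and CD14 had 12.1% to 42.9% of their probes kept and the 4 endothelial genes (PECAM1, CDH5, VWF and TEK) 12.5% to 50.0%, so single kept probes do not show that a gene is expressed.

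AGO2, the target of the siRNA, was examined first. Its log2 level, the mean over 19 kept probes, was 9.21, 9.14 and 9.01 on the cntrl arrays and 8.35, 8.44 and 8.42 on the sirnaAGO2 arrays. The groups did not overlap, and the transcript fell by 0.71 (SE 0.076, adjusted p = 0.00491 by limma with Benjamini-Hochberg adjustment over all genes), to 61.0% of the control level on this intensity scale. With the mimic present, AGO2 was lower by 1.06 in sirnaAGO2+mimic145 than in mimic145 cells (adjusted p = 0.000783). The direction therefore went with the labels on every array. AGO2 was itself called higher in mimic145 than in cntrl cells (0.28, adjusted p = 0.0298), which held in 15 of 29 other settings. The group means were 8.41 in sirnaAGO2 and 8.34 in sirnaAGO2+mimic145, so the larger fall against mimic145 does not show a lower AGO2 level. The call for sirnaAGO2 against cntrl was lost without replicate 1 (-0.64, adjusted p = 0.221), without replicate 2 (-0.72, 0.114), without replicate 3 (-0.78, 0.166) and without the sirnaAGO2 array of replicate 1 (-0.68, 0.0522). The call against mimic145 was lost without replicate 1 (-0.998, adjusted p = 0.0757), replicate 2 (-1.08, 0.0515) and replicate 3 (-1.09, 0.0721), and in the fit of both groups alone (-1.06, 0.188).

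In cells with intact Ago2, the ligands AREG, EREG and NRG1 were called higher with the mimic and the receptor ERBB3 was called lower, the last on probes kept mainly through the cntrl arrays, whereas EGFR, ERBB2, ERBB4, HBEGF, TGFA and BTC did not pass the test. These are 4 of 10 genes at an adjusted p under 0.05, beside 22.6% of all genes in the same comparison, of which 11.6% were called higher and 11% were called lower. The median log2 difference of the 10 genes was 0.030, and that of all genes 0.012. When Ago2 was silenced, AREG was called higher with the mimic and no other of the 10 genes passed. This is 1 of 10 beside 7.28% of all genes, 4.25% called higher and 3.03% called lower. Here the median was -0.015 for the 10 genes and 0.020 for all genes. Of all calls in silenced cells 58.4% were higher, and 80.2% when arrays were scaled by their 75th percentile, which moved the median of all genes to 0.11 and left AREG at 0.71 (adjusted p = 0.00686). A share of 4 in 10 is read from so few genes that no statement on the family as a whole is drawn from it. RNA content per cell was not measured, and all levels are relative to the total signal of an array.

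**Figure D1:**
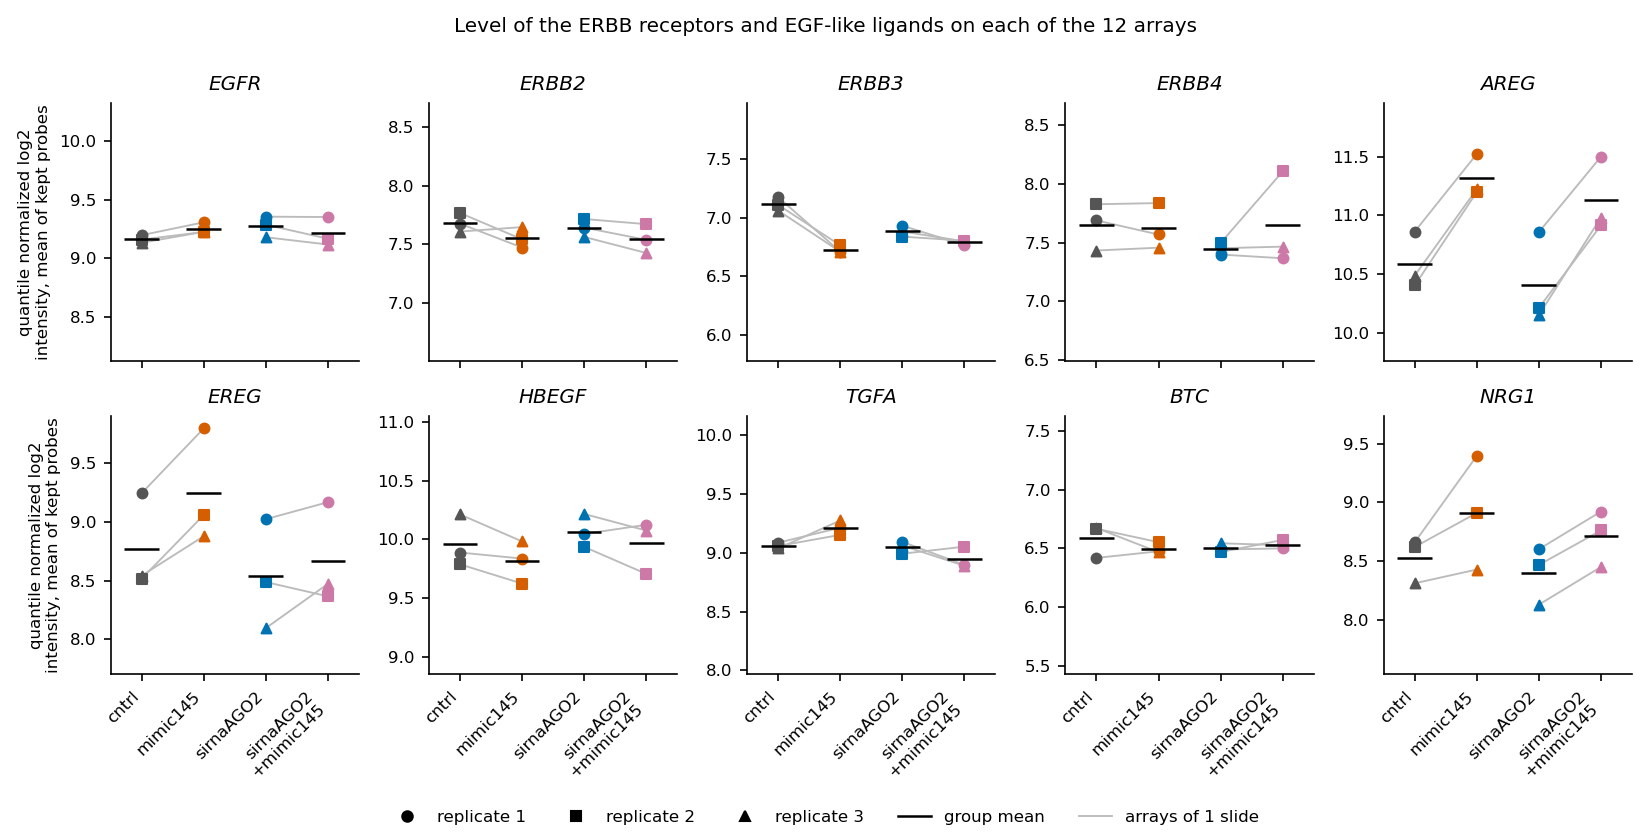
Quantile normalized log2 intensity (y axis, the mean over the kept probes of a gene) of the 10 genes in the 4 groups (x axis), with 1 point for each of the 12 arrays, a black bar for the group mean and grey lines joining the arrays of 1 slide. Every panel spans the same log2 range, and AREG stands out with lines that climb by 0.64 to 0.83 in all 6 slides.

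EGFR, the receptor for most of the ligands, was measured by 30 kept probes of 31, of which 29 were well above background on all 12 arrays. Its log2 level was 9.20, 9.16 and 9.13 in cntrl, 9.31, 9.23 and 9.23 in mimic145, 9.36, 9.29 and 9.18 in sirnaAGO2, and 9.35, 9.17 and 9.12 in sirnaAGO2+mimic145. The mimic145 arrays lay above all cntrl arrays, but by little. The difference was 0.089 (95% confidence interval -0.052 to 0.23, adjusted p = 0.344), and in silenced cells it was -0.061 (-0.20 to 0.079, adjusted p = 0.544). The lower bounds of these intervals, -0.052 and -0.20, limit how large a fall of the EGFR transcript these arrays leave room for. The mimic pairs ran upward in 3 of 3 slides with Ago2 intact and downward in 3 of 3 with Ago2 silenced, there by only -0.003 in replicate 1. The difference between both effects, -0.15 (-0.35 to 0.049), did not pass (adjusted p = 0.414).

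ERBB3, the kinase-impaired partner of ERBB2, was the receptor with a call, which was lost on the probes measured on all arrays. Its log2 level was 7.17, 7.11 and 7.06 on the cntrl arrays and 6.71, 6.76 and 6.71 on the mimic145 arrays. All mimic145 arrays were below all cntrl arrays, and the pairs differed by -0.46, -0.34 and -0.35. The mean over the 11 kept probes differed by -0.39 (SE 0.062, adjusted p = 0.00259), which is 76.5% of the control level. On the sirnaAGO2 arrays it was 6.93, 6.84 and 6.88, and on the sirnaAGO2+mimic145 arrays 6.77, 6.80 and 6.80, a difference of -0.095 (-0.23 to 0.045, adjusted p = 0.338) that turned to 0.16 (adjusted p = 0.375) with 75th percentile scaling. From the highest group mean to the lowest, the order was cntrl (7.11), sirnaAGO2 (6.88), sirnaAGO2+mimic145 (6.79) and mimic145 (6.73). No 2 groups overlapped, but of the neighbours in this order none passed a test, with -0.23 for sirnaAGO2 against cntrl (adjusted p = 0.0885) and 0.061 for sirnaAGO2+mimic145 against mimic145 (adjusted p = 0.609). The effect of the mimic was less negative by 0.29 in silenced than in control cells (95% confidence interval 0.095 to 0.49, 3 of 3 replicates), which did not pass over all genes (adjusted p = 0.164).

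The ERBB3 signal was low, and its measurement rests on few probes. Of its 29 probes 11 were kept and 10 were well above background on no array. All 11 kept probes were above background on every cntrl array, but 3 of them on every mimic145 array, so the gene entered the test mainly through the group in which it was high, and the call does not by itself show a fall. In the fit on the 3 probes above background on all 12 arrays, the difference was -0.15 (adjusted p = 0.349). Of these 3, a bright probe with a mean of 11.7 had a difference of -0.73 (adjusted p = 0.139 over all probes), and the others had 0.093 and 0.17, so the sign of that mean rests on 1 probe. The other kept probes had means up to 7.22. Over all kept probes, with the 75th percentile in place of quantile normalization, the difference was -0.24 (adjusted p = 0.194). Without the filter, over all its probes, it was -0.38 (adjusted p = 0.00935), and 26 of the 29 probes were lower with the mimic. Of these 26, 17 were among the 18 probes that the filter had left out as dim. The share of lower probes among all dim probes was not taken, so no conclusion is drawn from this count. Over all spots of an array, too, the share well above background was lower in mimic145 than in cntrl for replicates 1 and 2, but not for replicate 3. Whether this bears on the ERBB3 values was not tested. The call was also lost without replicate 1 (-0.35, adjusted p = 0.0770).

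ERBB2, the receptor amplified in another class of breast cancers, was at 7.68, 7.77 and 7.61 in cntrl and at 7.47, 7.54 and 7.65 in mimic145, over 25 kept probes of 30. The groups overlapped, and the difference was -0.13 (-0.30 to 0.045, adjusted p = 0.266). On the sirnaAGO2 arrays it was 7.64, 7.72 and 7.56 and with the mimic 7.54, 7.67 and 7.43, a difference of -0.095 (-0.27 to 0.080, adjusted p = 0.444) that was 0.027 with 75th percentile scaling. ERBB4 had 6 kept probes of 29, with 22 above background on no array. A single probe had a mean of 13.3 and the other kept probes means from 6.10 to 7.50, so the gene's value leans on the 1 bright probe. It gave -0.029 with the mimic (-0.31 to 0.26, adjusted p = 0.899) and 0.20 in silenced cells (-0.087 to 0.48, adjusted p = 0.330), and the second value rests on the array pair of replicate 2, which differed by 0.61 where the other pairs differed by -0.032 and 0.013.

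Amphiregulin (AREG), a ligand of EGFR, showed the largest rise of the 10 genes in both arms. Its level was 10.86, 10.40 and 10.49 in cntrl and 11.52, 11.20 and 11.22 in mimic145. It was 10.86, 10.21 and 10.15 in sirnaAGO2 and 11.50, 10.92 and 10.98 in sirnaAGO2+mimic145. In either arm every array with the mimic lay above every array without it. AREG rose by 0.73 with Ago2 intact (SE 0.085, 95% confidence interval 0.54 to 0.92, adjusted p = 0.000648) and by 0.73 with Ago2 silenced (0.53 to 0.92, adjusted p = 0.00542), a rise of 1.66-fold and 1.65-fold. The difference between both effects was -0.0064, with an interval from -0.28 to 0.26 (adjusted p = 0.983). Among all genes, its difference stood at the percentile 98.9 in the first arm and 99.4 in the second. Silencing alone gave -0.18 (-0.37 to 0.014, adjusted p = 0.299), and silencing in the presence of the mimic -0.18 (adjusted p = 0.251).

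All 6 AREG probes were well above background on all 12 arrays. Each of the 6 was higher with the mimic in both arms, by 0.37 to 1.12 with Ago2 intact and by 0.59 to 0.99 with Ago2 silenced. In a fit on single probes, chosen after the gene means had been seen, 4 of the 6 passed in the first arm, where 15.4% of all 142929 kept probes did, and 3 in the second, where 1.87% did. These probes were read on the same arrays as the gene means, so they are no separate support. In the second arm 0 of the 6 passed without the replicate block, and 0 without replicate 1, 2 or 3. The call of the gene in the silenced arm was lost without replicate 2 (0.74, adjusted p = 0.132) and without replicate 3 (0.67, adjusted p = 0.162). The call with intact Ago2 held in each of these fits.

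Epiregulin (EREG), a ligand of EGFR and ERBB4, was at 9.25, 8.52 and 8.54 in cntrl and at 9.80, 9.06 and 8.88 in mimic145. Replicate 1 was the highest array of each group, the groups overlapped, and within slides the arrays differed by 0.55, 0.54 and 0.34. EREG rose by 0.48 (SE 0.094, adjusted p = 0.00737), or 1.39-fold, and was higher at all 4 kept probes. In sirnaAGO2 cells it was 9.02, 8.49 and 8.10 and in sirnaAGO2+mimic145 cells 9.17, 8.37 and 8.47. The pairs there differed by 0.14, -0.12 and 0.38, and the mean difference of 0.13 (-0.080 to 0.35) did not pass (adjusted p = 0.379). The direct test of both effects gave -0.34 (-0.64 to -0.042, adjusted p = 0.253), so a loss of the rise after silencing was not shown over all genes. Compared with mimic145 cells, sirnaAGO2+mimic145 cells held less EREG in 3 of 3 replicates, a fall by 0.58 (adjusted p = 0.0167). The call with the mimic was lost without replicate 1 (0.44, adjusted p = 0.117). The last call was lost without replicate 1 (-0.55, 0.236), replicate 2 (-0.52, 0.121) and replicate 3 (-0.66, 0.0991), and without single arrays, namely mimic145 replicate 1 (-0.54, 0.0772), mimic145 replicate 2 (-0.57, 0.0551) and sirnaAGO2+mimic145 replicate 1 (-0.57, 0.0559).

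Neuregulin 1 (NRG1), the ligand of ERBB3 and ERBB4, was at 8.66, 8.62 and 8.31 in cntrl and at 9.39, 8.91 and 8.43 in mimic145. The pairs differed by 0.74, 0.29 and 0.12, all upward but unequal, and the groups overlapped. NRG1 rose by 0.38 (SE 0.11, adjusted p = 0.0347), or 1.30-fold. In silenced cells it went from 8.60, 8.47 and 8.13 to 8.92, 8.76 and 8.45, with pair differences of 0.32, 0.29 and 0.32. That difference of 0.31 (0.066 to 0.56) did not pass (adjusted p = 0.104), and both effects differed by -0.069 (-0.42 to 0.28, adjusted p = 0.843). Of 16 kept probes, 15 were higher with the mimic and 6 passed on their own, and in silenced cells 16 were higher and 2 passed.

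The NRG1 call stood close to the threshold. It was lost without replicate 1 (0.20, adjusted p = 0.248), where the value fell most, without replicate 2 (0.43, 0.132) and without replicate 3 (0.51, 0.0631). With no replicate block (0.38, 0.33) and with the slide as a random block (0.38, 0.119) it was lost too. The call was also lost without 1 array in 8 of 12 cases. These were the cntrl arrays of replicate 1 (0.30, 0.136), replicate 2 (0.41, 0.0757) and replicate 3 (0.44, 0.0523), the mimic145 arrays of replicate 1 (0.23, 0.0971) and replicate 2 (0.42, 0.0615), and the sirnaAGO2 arrays of replicates 1, 2 and 3, where the value stayed at 0.38 and the adjusted p became 0.0521, 0.0536 and 0.0545. Without the mimic145 array of replicate 1, the difference in silenced cells passed (0.31, adjusted p = 0.0466).

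Of the ligands that did not pass, HBEGF, which binds EGFR and ERBB4, was at 9.89, 9.79 and 10.21 in cntrl and at 9.84, 9.62 and 9.98 in mimic145. The groups overlapped, and the difference was -0.15 (-0.33 to 0.035, adjusted p = 0.225). In silenced cells HBEGF was at 10.05, 9.94 and 10.22 without and at 10.13, 9.71 and 10.08 with the mimic (-0.098, adjusted p = 0.455). All 6 HBEGF probes had a negative difference in both arms, and 0 of them passed in the fit on single probes by limma. BTC had 3 kept probes of 7 and none above background on all 12 arrays, with levels between 6.42 and 6.67 on every array. Its difference was -0.088 (-0.25 to 0.076, adjusted p = 0.425) with Ago2 intact and 0.032 (adjusted p = 0.803) with Ago2 silenced, at a signal close to background.

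TGFA, a high-affinity ligand of EGFR, was a gene whose probes disagreed. Its level was 9.09, 9.06 and 9.04 in cntrl and 9.21, 9.15 and 9.28 in mimic145, with no overlap between the groups. The mean over 6 probes differed by 0.15 (-0.0099 to 0.32, adjusted p = 0.164). This mean hid opposite differences, as 3 probes rose by 0.61, 0.64 and 0.73 (adjusted p = 0.0145, 0.0224 and 0.00173 over all probes) while 1 fell by 0.69 (adjusted p = 0.0344) and the other 2 had differences of -0.29 and -0.064. The call of the falling probe was lost without replicate 1, without replicate 2 and without replicate 3. Of the rising probes 0 passed without replicate 1, 1 without replicate 2 and 1 without replicate 3. On the falling probe the cntrl arrays read 13.52, 13.65 and 13.18 and the mimic145 arrays 12.67, 12.86 and 12.76. The probe that rose most went from 7.74, 7.65 and 7.62 to 8.38, 8.43 and 8.37. On both probes the groups did not overlap. The transcript a probe was designed on did not sort them, since 1 record had 1 probe up and 1 down and the other had 2 up and 2 down.

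In silenced cells none of the 6 TGFA probes passed, with differences from -0.46 to 0.23. The gene was at 9.09, 8.99 and 9.06 in sirnaAGO2 and at 8.90, 9.05 and 8.89 in sirnaAGO2+mimic145, a difference of -0.10 (-0.27 to 0.061, adjusted p = 0.376). All sirnaAGO2+mimic145 arrays were below all mimic145 arrays (-0.27, adjusted p = 0.0727). The mimic effects differed by -0.26 (-0.49 to -0.025, adjusted p = 0.263). The TGFA value with intact Ago2 passed when the median over its probes was used (0.35, adjusted p = 0.0295) and in the authors' log2 table (0.24, adjusted p = 0.0196). Positions of the probes within the gene were not used here.

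**Figure D2:**
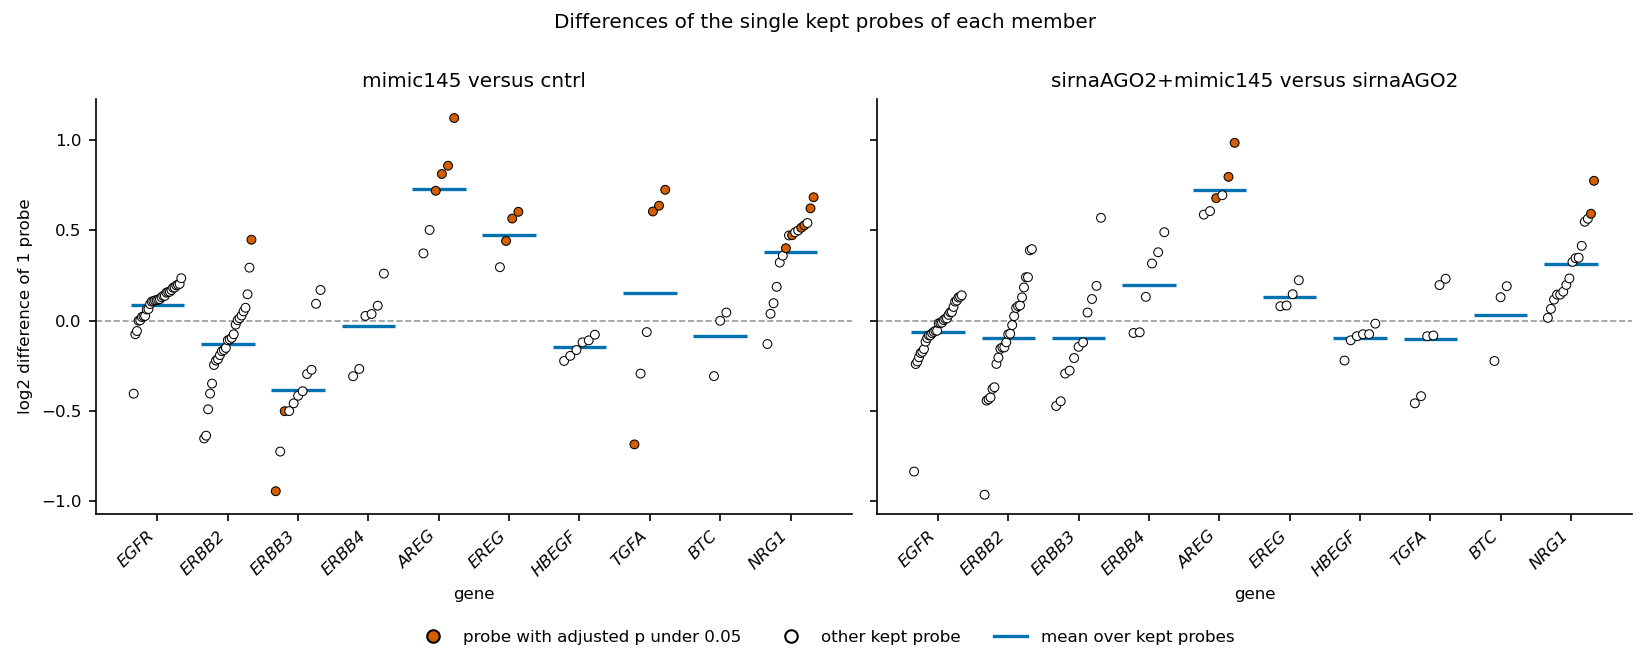
Log2 difference of each kept probe (y axis) of the 10 genes (x axis), mimic145 against cntrl on the left and sirnaAGO2+mimic145 against sirnaAGO2 on the right; filled points passed at an adjusted p under 0.05 over all kept probes, and the blue bar is the mean over the probes of the gene. The 6 AREG probes lie above 0 in both panels, 15 and 16 of the 16 NRG1 probes do so, and the TGFA probes split into 3 above and 3 below on the left.

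The remaining comparisons gave few changes in the family. After silencing alone (sirnaAGO2 against cntrl), limma called 0 of the 10 genes, beside 2.58% of all genes. At an unadjusted p under 0.05 there were 2 of the 10, beside 3466 of all 18253 genes. The methods' paired t-test called 2 before Benjamini-Hochberg adjustment, beside 17.46% of all genes, and 0 after it. In the same comparison 8 of the 10 differences were negative, with a median of -0.11 where all genes had -0.033. Silencing in the presence of the mimic (sirnaAGO2+mimic145 against mimic145) called 1, EREG, beside 4.32%. For the difference between both mimic effects limma called 0 of 10, beside 0.011% of all genes, which are 2 genes. At an unadjusted p under 0.05 there were 3 of the 10 (ERBB3, EREG and TGFA), beside 3061 of all 18253 genes. The paired t-test called 2 of 10 there before adjustment, beside 10.34% of all genes, and 0 after it. These comparisons share arrays with each other, so their values are not independent.

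**Figure D3:**
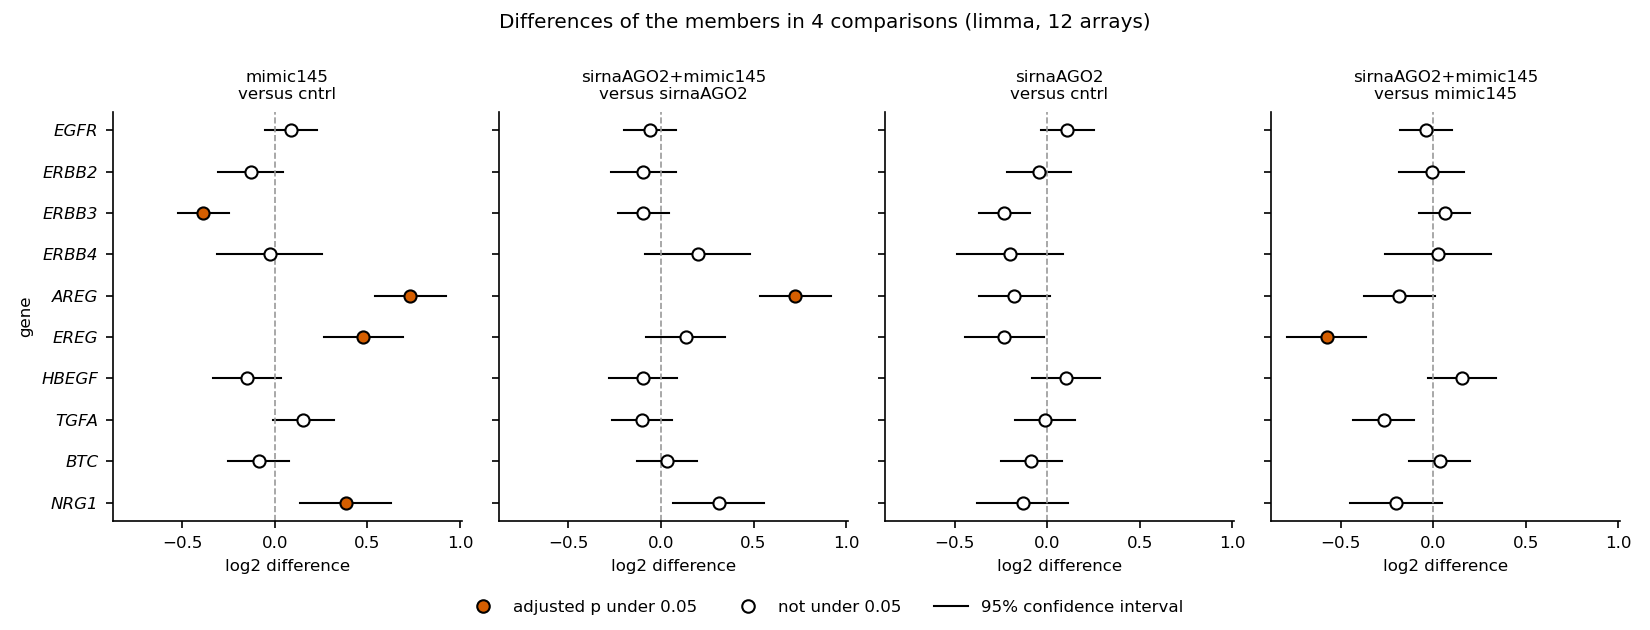
Log2 difference (x axis) of the 10 genes (y axis) in 4 comparisons, with bars for the 95% confidence interval from limma on all 12 arrays and filled points for an adjusted p under 0.05 over all genes. The interval of AREG lies right of 0.5 in both comparisons of the mimic, that of ERBB3 lies left of 0 in the first, and the EGFR intervals span 0 in all 4.

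Other genes of the pathway were followed through 5 lists. Of the other ligands, EPGN, NRG4 and NRG2 were measured and EGF and NRG3 did not pass the filter. With intact Ago2 0 of 3 were called by limma (0 at an unadjusted p under 0.05, and 0 to 1 in the other settings), and with Ago2 silenced 2 of 3 were, each on a single probe, beside 7.28% of all genes. Epigen (EPGN), an EGFR ligand, gave 0.35 (adjusted p = 0.154) with Ago2 intact and rose by 0.66 (SE 0.16, adjusted p = 0.0442) with Ago2 silenced. NRG4, a ligand of ERBB4, gave 0.22 (adjusted p = 0.149) and rose by 0.46 (SE 0.099, adjusted p = 0.0337). Neither showed a difference of effects that passed. Both calls were lost in most of the other settings, holding in 9 of 29 for EPGN and in 11 of 29 for NRG4.

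The shedding list holds the metalloproteases and rhomboid proteins that release or traffic the ligands. Of its 8 genes 1 was called in either arm (12.5%, beside 22.6% of all genes with Ago2 intact and 7.28% with Ago2 silenced). It was ADAM10, the main sheddase of betacellulin and EGF. ADAM10 fell by 0.61 with Ago2 intact (SE 0.094, adjusted p = 0.00219) and by 0.45 with Ago2 silenced (adjusted p = 0.0312), over 16 probes. ADAM17, the main sheddase of AREG, EREG, TGFA and HBEGF, differed by -0.23 (adjusted p = 0.294) and -0.27 (adjusted p = 0.251). The first ADAM10 call held in 27 of 29 other settings and the second in 13 of 29.

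Among 21 feedback inhibitors of the receptors and of ERK, 8 were called with intact Ago2 (38.1%, beside 22.6% of all genes), 7 higher and 1 lower. DUSP5, a nuclear ERK phosphatase, rose by 0.57 (adjusted p = 0.000684), SPRY4, a Sprouty protein, by 0.52 (adjusted p = 0.00157) and CBL, the ubiquitin ligase of active EGFR, by 0.48 (adjusted p = 0.00226). The receptor phosphatase PTPRJ fell by 0.39 (adjusted p = 0.00914). The median over the list was 0.058, close to the 0.012 of all genes. In silenced cells 2 of 21 passed (9.52%, beside 7.28%), DUSP5 with 0.32 (adjusted p = 0.0312) and SPRY4 with 0.34 (adjusted p = 0.0336). These calls in silenced cells held in 14 and 13 of 29 other settings.

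Of 26 adaptors and kinases, 7 were called with intact Ago2 (26.9%, near the 22.6% of all genes), 4 higher and 3 lower. The adaptor SHC1 rose by 0.51 (adjusted p = 0.0156) and the kinase MAP2K1 by 0.35 (adjusted p = 0.0488). EPS15, an endocytic adaptor of EGFR, fell by 0.62 (adjusted p = 0.00172), PIK3CB by 0.37 (adjusted p = 0.0290) and the phosphatase PTPN11 by 0.30 (adjusted p = 0.0127). In silenced cells 3 passed (11.5%, beside 7.28% of all genes), 1 higher and 2 lower, and the lower ones were EPS15 (-0.37) and PTPN11 (-0.32), both in the same direction as with Ago2. The call of EPS15 with intact Ago2 held in 28 of 29 other settings, that of PIK3CB in 14 and that of MAP2K1 in 8. In silenced cells the call of EPS15 held in 10 and that of PTPN11 in 12 of 29.

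Of 21 early targets of the pathway, 7 were called with intact Ago2 (33.3%), all of them higher, beside 11.6% of all genes called higher (EGR2, also on the list, did not pass the filter), and the median of the list was 0.25. MMP1, a collagenase gene downstream of AP-1, rose by 1.36 (SE 0.31, adjusted p = 0.0139) on 1 probe, with overlapping groups. Its value ran from 0.52, without the filter on dim probes, to 1.72, without replicate 2, and was called in 19 of 28 other settings. JUNB, an AP-1 subunit also read by 1 probe, rose by 0.56 (adjusted p = 0.00263) and ETV5, an ETS factor with 13 probes, by 0.51 (adjusted p = 0.000901). In silenced cells 2 of 21 passed (9.52%, beside 7.28% of all genes), MMP1 (1.22, adjusted p = 0.0495) and JUNB (0.39, adjusted p = 0.0387), and the median was 0.15. These calls held in 11 of 28 and 13 of 29 other settings. After silencing alone 2 of the 21 were called, beside 2.58% of all genes, EGR1 with a rise of 1.69 (2 probes, adjusted p = 0.0175) and ETV5 with 0.40 (adjusted p = 0.0213), which held in 19 and 15 of 29 other settings. In each of the 4 lists with calls, that count with intact Ago2 went to 0 in at least 1 other setting, the methods' paired t-test after adjustment.

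**Figure D4:**
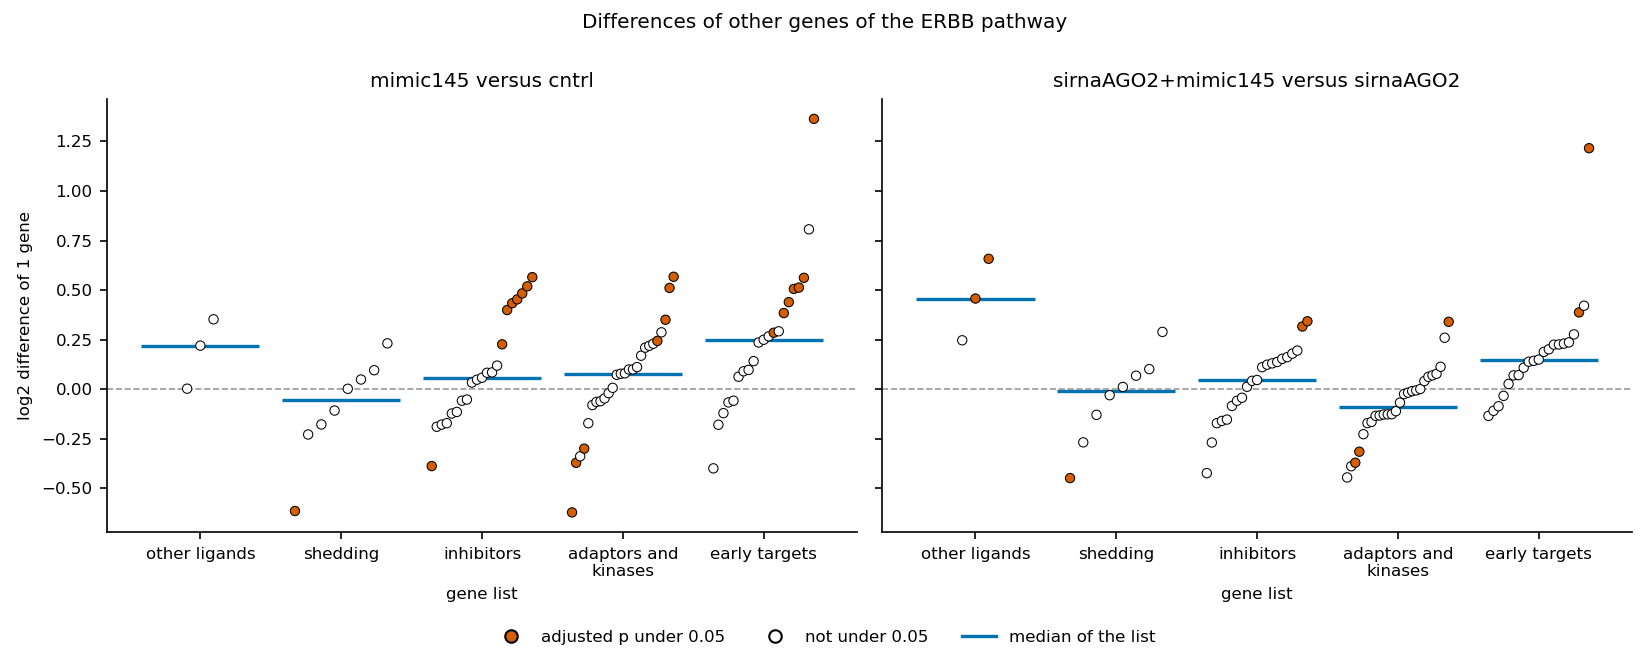
Log2 difference of each gene (y axis) of the 5 pathway lists (x axis), mimic145 against cntrl on the left and sirnaAGO2+mimic145 against sirnaAGO2 on the right; filled points passed at an adjusted p under 0.05 over all genes and the blue bar is the median of the list. The inhibitors and early targets on the left hold 7 filled points above 0 each, and on the right 2 each.

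The genes whose levels over the 12 arrays ran most like those of the called family genes were found among genes with at least 3 kept probes. The arrays share groups and replicate numbers, so these Pearson r values are descriptions. For AREG they were FBXO42 (0.952), KLF3 (0.947) and PLAT (0.933), and within groups, where the mean of each group was removed, their r with AREG was 0.960, 0.912 and 0.892. For EREG they were MRPL1 (0.942), GTF2B (0.936) and KLHL20 (0.930), and for NRG1 SDHB (0.969), UBE2J2 (0.968) and ING3 (0.955). For ERBB3 they were HLA-DRB1 (0.967), PSORS1C1 (0.958) and LTA4H (0.957). Within groups the r with ERBB3 dropped to between 0.333 and 0.394, so that likeness lay mostly between the groups, while for the 3 ligands it lay also between the replicates.

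AREG and EREG lie close together on chromosome 4, at chr4:74445136-74455005 and chr4:74365145-74388749 (GRCh38.p14, both protein-coding and on the plus strand), and BTC lies further along at chr4:74744759-74794523. With intact Ago2, AREG and EREG were called higher with the mimic. BTC did not pass, but its signal was close to background, so it is a weak contrast. Whether AREG and EREG share a control was not tested. The 250 bases before the RefSeq starts of AREG and EREG are shown, chr4:74444886-74445135 for AREG and chr4:74364895-74365144 for EREG. They are written 5′ to 3′ on the plus strand. Capitals mark the letters TGACGTCA, the cyclic AMP response element, and TATAAA, the TATA box.
AREG: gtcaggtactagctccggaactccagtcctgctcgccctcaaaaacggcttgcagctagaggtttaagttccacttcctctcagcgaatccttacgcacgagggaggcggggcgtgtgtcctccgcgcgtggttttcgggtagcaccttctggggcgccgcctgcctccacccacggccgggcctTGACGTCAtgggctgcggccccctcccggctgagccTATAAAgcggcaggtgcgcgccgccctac
EREG: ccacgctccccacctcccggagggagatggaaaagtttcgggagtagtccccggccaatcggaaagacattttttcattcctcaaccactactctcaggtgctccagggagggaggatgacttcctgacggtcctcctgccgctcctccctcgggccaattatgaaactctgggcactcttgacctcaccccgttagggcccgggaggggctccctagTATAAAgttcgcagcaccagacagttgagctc
Counted back from the start, where -1 is the base before it, the TATAAA run began at -29 in AREG and at -32 in EREG, and TGACGTCA at -65 in AREG. Searched on both strands, TGACGTCA was in 1.65% of all 35116 RefSeq stretches of this length and TATAAA in 10.7%. The AP-1 motif TGANTCA, found in 6.57%, was in neither of these 2 stretches. The search covered 10 stretches given for 8 of the genes (ERBB3 and NRG1 are not among them). Among these, TGACGTCA was found for AREG alone and TATAAA for AREG, EREG and EGFR. In EGFR, TATAAA was not in the stretch directly before the first base of the gene. It lay only in a stretch before another RefSeq start, further along the gene. These matches describe letters and not factors bound there.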

How the data were processed

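RNA of MDA-MB-231 cells was measured on 12 single-color Agilent exon arrays. Groups and replicate numbers came from the sample labels, which do not say that replicates were separate cultures, so p-values measure the spread between these arrays. The 10 genes, the pathway lists and the markers were chosen with earlier results of these data known.

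The scanner files that the authors deposited hold, per spot, the processed signal of Feature Extraction 10.7.3.1. It is an intensity with the background removed and no normalization between arrays. A second deposited source, the authors' log2 values of 217027 probes after quantile normalization, was an alternative. Control spots and outlier spots were left out, intensities under 1 would have been set to 1 (none was), and the signal was quantile normalized and log2 transformed, in the order of the study's methods. Probes were named through their transcript by RefSeq (GRCh38.p14), for 209671 of 233164 probes and 20708 genes. A probe was kept if 1 or more groups had it well above background in all 3 replicates, leaving 142929 probes and 18253 genes, and a gene's value is the mean over its kept probes, averaged on the log2 scale. Array number limits the precision, with a median SE of 0.099 for a difference between 2 groups.

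The 4 groups were fitted to all 12 arrays with the replicate number as a block (limma 3.58.1, R 4.3.3, lmFit and eBayes, two-sided, Benjamini-Hochberg over all genes, threshold 0.05). The pairing rests on the replicate numbers of the labels and on the paired test in the methods. As a check, deviations from the group means were correlated between arrays, and r ran from 0.148 to 0.576 for 18 pairs of arrays with 1 number and from -0.497 to 0.201 for 36 others. An exact permutation test of 3 arrays against 3 cannot go below 0.1 and was not used. Each of the 6 slides holds 1 mimic pair, so pair differences of the mimic are also values within a slide. Differences by silencing lie between slides. All members, AGO2, up to 3 rises and 3 falls among the called genes of each list, and the 3 genes most like each called member are named, except for a few items that are not reported here. The alternatives were 75th percentile scaling, normexp with an offset of 50, the authors' table, 2 other probe filters, other thresholds, an intensity trend, the methods' paired t-test, the slide as a random block or no block at all, a median in place of the mean over probes, only the arrays compared, and omission of single replicates or arrays. Plots were drawn with matplotlib and sequences read from RefSeq tables. Seed sites in 3′ UTRs, proteins and probe positions were not analysed here.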

Additional observations from a re-analysis of the deposited data

How the results depend on the processing

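Over 29 alternatives and 5 comparisons, 1445 values of single family genes were recomputed. In 44 a call was lost, in 16 a call was gained, in 0 did a called value change sign, and in 48 an uncalled value did. With intact Ago2, AREG was called in 28 of 29 alternatives, EREG in 24, ERBB3 in 23 and NRG1 in 12, and AREG in silenced cells in 24 of 29. Not all alternatives could move a call equally. The threshold of 0.10 could not lose one, and leaving out an array of the other arm left the difference itself unchanged.

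For mimic145 against cntrl the count of 4 genes became 2 with no replicate block, 2 with the slide as a random block, 2 with the arrays of both groups alone, 0 by the methods' paired t-test after adjustment and 1 where a log2 difference over 0.5 was also required. That count was 3 with 75th percentile scaling and 3 of 9 with probes above background on all 12 arrays. It was 5 in the authors' log2 table and 5 with a median over probes. EREG and NRG1 were the genes lost with no replicate block and with the slide as a random block. For sirnaAGO2+mimic145 against sirnaAGO2 the count of 1 became 0 with no replicate block, 0 with the arrays of both groups alone, 2 by the unadjusted paired t-test and 0 after its adjustment. For sirnaAGO2 against cntrl the count of 0 became 2 by the unadjusted paired t-test and 1 at an adjusted p under 0.10. For sirnaAGO2+mimic145 against mimic145 the count of 1 became 2 with normexp, 2 with the authors' log2 table, 2 with an intensity trend, 2 by the unadjusted paired t-test, 2 at an adjusted p under 0.10, and 0 with no replicate block, 0 with the slide as a random block, 0 with the arrays of both groups alone and 0 by the adjusted paired t-test. For the difference of mimic effects the count of 0 became 2 by the unadjusted paired t-test. Of all genes, that unadjusted test called 14.25%, 17.46%, 12.14% and 10.34% in these comparisons, from sirnaAGO2+mimic145 against sirnaAGO2 onward. The cause of the moves in the family counts was not tested. The fits of 2 groups also had fewer arrays.

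Without the replicate block, AREG in silenced cells kept its difference of 0.73 with an adjusted p of 0.169, and the called genes of all 18253 went from 4121 to 1997 with intact Ago2 and from 1328 to 78 with Ago2 silenced, so these calls rest on the pairing. With intact Ago2 the count of all genes was also 1826 with the arrays of both groups alone and 0 by the adjusted paired t-test, and without whole replicates it was 1211 to 2326. With Ago2 silenced it was 0 in the first of these fits and 0 in the second, 2394 with 75th percentile scaling, 2192 with normexp, 2035 in the authors' table, 2091 with probes above background on all 12 arrays and 3118 at an adjusted p under 0.10. Over all alternatives it ran from 0 to 3187 for sirnaAGO2 against cntrl (471 as reported), from 0 to 2216 for sirnaAGO2+mimic145 against mimic145 (788) and from 0 to 1888 for the difference (2). When each replicate and each array was left out in turn, the counts lay between 1 and 4 for mimic145 against cntrl, 0 and 2 for sirnaAGO2+mimic145 against sirnaAGO2, 0 and 0 for sirnaAGO2 against cntrl, 0 and 2 for sirnaAGO2+mimic145 against mimic145, and 0 and 0 for the difference. Leaving out replicate 2 or replicate 3 gave 0 called genes of all for sirnaAGO2+mimic145 against sirnaAGO2. Of the fits on single probes, the 4 AREG probes called with intact Ago2 became 1 without the block and 0 to 3 without a replicate, the 6 NRG1 probes 0 and 0 to 1, and the 3 rising TGFA probes 1 and 0 to 1. The 1 TGFA probe called lower became 0 without replicate 1, 2 or 3. With Ago2 silenced, the 3 called AREG probes became 0 without the block and 0 without replicate 1, 2 or 3.

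Low signal limited ERBB3, ERBB4 and BTC, of which 3, 2 and 0 probes were above background on all 12 arrays. BTC has no value in the filter to such probes. All arrays carry the same scan day, so it was not a block.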
